A study of Homo sapiens with 24 samples.

Results

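The genes described here are the 8 members of the human E2F family, E2F1 to E2F8, and the MYB-like genes MYBL1 and MYBL2. They were taken by symbol from the raw count files, which hold 58735 entries per library, and all 10 were found once in every file and passed the low-count filter in every model. Polyadenylated RNA was sequenced from 3 breast cancer cell lines, HCC1395, HCC38 and HCC1937, in 24 libraries that form 8 groups of 3 lettered A to C. HCC1395 cells were given the solvent DMSO, EZH2i (tazemetostat, which blocks the histone methyltransferase EZH2, at 5 uM), AKTi (ipatasertib, which blocks the AKT kinases, at 5 uM), or EZH2i+AKTi, both together at the same doses. HCC38 and HCC1937 cells were given DMSO or EZH2i+AKTi, so no single-agent value exists here for either. No genotype, transgene or clone is named in the labels, each line stands for 1 tumour, and the treatment times in the protocol text are written for another line and assay, so the duration for these libraries is not clear. Whether the 3 libraries of a group came from separate cultures is not said, so p-values reflect the spread between libraries, which may be technical.

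E2F proteins bind DNA, mostly as pairs with a DP partner (TFDP1 or TFDP2), and switch the genes of DNA replication on or off as cells pass from G1 into S phase. E2F1, E2F2 and E2F3 act mainly as activators and are held in check by the retinoblastoma protein RB1 until cyclin-dependent kinases phosphorylate it. E2F4 and E2F5 mainly repress, together with the RB1 relatives RBL1 (p107) and RBL2 (p130), in the DREAM complex of resting cells. E2F6 represses through Polycomb-group partners without RB1, and E2F7 and E2F8 are atypical repressors that bind without a DP partner and are themselves induced in S phase. MYBL2 (B-MYB) is an E2F target that joins the MuvB core of DREAM in cycling cells and, with FOXM1, turns on the genes of G2 and mitosis, while MYBL1 (A-MYB) is a related activator best known from male germ cells.

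The sequences at the start sites of 6 of the genes are shown, among them genes that moved together under the treatments and genes that did not. The promoter table used here had no sequence for E2F5, E2F8 and MYBL1, and that of E2F6 is not shown. Each window runs from 250 bases before to 50 after the annotated start (RefSeq, GRCh38.p14), 5′ to 3′ on the gene's strand. Capitals mark matches on either strand to an E2F word (TTTCCCGC, TTTCGCGC, TTTGCCGC or TTTGGCGC), to the shorter E2F core (GGCGGGA or GGCGCGA) or to a CHR element (TTTGAA or TTCGAA), the element through which DREAM and B-MYB are recruited. E2F3 has a second start region in that table, which holds 2 core matches and is not shown.
E2F1 (chr20:33686336-33686635, - strand): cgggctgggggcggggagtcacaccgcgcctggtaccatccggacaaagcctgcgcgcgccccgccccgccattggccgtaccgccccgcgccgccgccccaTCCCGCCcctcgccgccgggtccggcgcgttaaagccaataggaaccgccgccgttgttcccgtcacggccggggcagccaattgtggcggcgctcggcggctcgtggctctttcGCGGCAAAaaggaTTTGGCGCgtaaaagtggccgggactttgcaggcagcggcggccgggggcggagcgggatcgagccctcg
E2F2 (chr1:23531184-23531483, - strand): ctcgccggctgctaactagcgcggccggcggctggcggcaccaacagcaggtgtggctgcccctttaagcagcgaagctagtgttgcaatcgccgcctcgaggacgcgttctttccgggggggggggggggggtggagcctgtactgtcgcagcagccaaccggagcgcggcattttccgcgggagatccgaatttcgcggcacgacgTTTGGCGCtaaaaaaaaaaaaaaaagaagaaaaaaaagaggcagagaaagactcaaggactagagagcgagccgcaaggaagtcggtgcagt
E2F3 (chr6:20401629-20401928, + strand): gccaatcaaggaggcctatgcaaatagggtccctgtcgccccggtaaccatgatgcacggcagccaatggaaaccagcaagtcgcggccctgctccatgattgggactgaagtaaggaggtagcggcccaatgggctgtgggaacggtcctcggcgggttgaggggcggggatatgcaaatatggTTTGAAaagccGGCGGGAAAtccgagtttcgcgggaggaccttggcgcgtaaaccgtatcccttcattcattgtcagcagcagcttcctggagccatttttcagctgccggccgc
MYBL2 (chr20:43666864-43667163, + strand): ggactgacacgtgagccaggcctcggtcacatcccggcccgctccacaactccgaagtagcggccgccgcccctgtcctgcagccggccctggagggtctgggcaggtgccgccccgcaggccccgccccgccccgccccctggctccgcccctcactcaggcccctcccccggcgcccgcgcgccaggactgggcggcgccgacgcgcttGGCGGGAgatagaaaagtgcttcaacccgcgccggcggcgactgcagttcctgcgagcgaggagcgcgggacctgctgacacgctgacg
E2F7 (chr12:77065520-77065819, - strand): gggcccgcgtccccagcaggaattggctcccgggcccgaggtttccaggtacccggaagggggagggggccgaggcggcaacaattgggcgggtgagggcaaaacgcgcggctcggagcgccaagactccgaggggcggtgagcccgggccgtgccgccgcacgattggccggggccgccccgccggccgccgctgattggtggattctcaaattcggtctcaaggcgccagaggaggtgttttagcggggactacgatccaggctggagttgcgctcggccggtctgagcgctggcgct
E2F4 (chr16:67191905-67192204, + strand): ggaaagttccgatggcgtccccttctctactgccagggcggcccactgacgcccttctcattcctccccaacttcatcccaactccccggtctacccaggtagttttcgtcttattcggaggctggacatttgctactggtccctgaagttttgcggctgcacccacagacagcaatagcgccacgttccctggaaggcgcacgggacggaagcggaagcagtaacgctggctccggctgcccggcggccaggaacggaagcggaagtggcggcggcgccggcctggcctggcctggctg
The E2F1 window held 2 E2F words, at bases -33 to -26 and -20 to -13 from the start, and 1 core match at -148 to -142. E2F2 held 1 E2F word at -42 to -35. E2F3 held 1 E2F word at -53 to -46, which overlaps a core match at -54 to -48, and 1 CHR match at -65 to -60. MYBL2 held 1 core match at -39 to -33. The windows of E2F7 and E2F4, and that of E2F6, held no E2F word, core or CHR match. E2F1, E2F3 and E2F7 also held 3, 4 and 4 matches to the box CCAAT, which are not in capitals. Of 35116 RefSeq promoters of the same length, 3.31% held an E2F word, 19.1% a core match, 20.7% one or the other, 16.4% a CHR match and 34.6% a CCAAT box on either strand. A match is a match of letters only, and no binding was measured in these libraries.

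In GENCODE 29 on GRCh38 all 10 are protein-coding genes. E2F1 lies at chr20:33675683-33686404 on the minus strand, E2F2 at chr1:23506430-23531220 (minus), E2F3 at chr6:20401906-20493715 (plus), E2F4 at chr16:67192169-67198918 (plus) and E2F5 at chr8:85177225-85217158 (plus). E2F6 lies at chr2:11444375-11466177 (minus), E2F7 at chr12:77021247-77065580 (minus), E2F8 at chr11:19224063-19241620 (minus), MYBL1 at chr8:66562175-66614247 (minus) and MYBL2 at chr20:43667019-43716496 (plus). E2F5 shares 969 exonic bases with the protein-coding gene C8orf59 on the opposite strand, which had 95 to 948 counts per library against 44 to 535 for E2F5. The strand setting of the counting is not given, so reads of those 2 genes cannot be told apart and E2F5 values are uncertain. The E2F3 and E2F4 pseudogenes and those of E2F6 had at most 11 counts in any library, and the antisense RNA that overlaps 7 exonic bases of E2F8 at most 10.

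Library totals ran from 33469927 to 51815656 counts, and mitochondrial genes took 3.77 to 8.54% of them. In HCC1395 that share was 3.77 to 3.92% in DMSO, 4.49 to 5.19% with EZH2i, 5.34 to 5.72% with AKTi and 6.14 to 6.299% with both, and in HCC1937 it was 4.81 to 6.37% in DMSO and 6.72 to 8.54% with both. It was thus higher with treatment in these 2 lines, without overlap with DMSO, and its part in the results was not tested. Replicate C of HCC38 under EZH2i+AKTi stood apart from its group, with 7.77% mitochondrial counts against 4.76% and 5.19% in replicates A and B and a chi-square per gene of 88.17 against A and 45.66 against B, where A and B gave 15.53. The HCC38 changes of the 10 genes are therefore given with and without it, as are most other values of treated HCC38. Other groups were uneven to a smaller degree. In HCC1395 EZH2i+AKTi the chi-square per gene was 35.28 between B and C, 17.67 between A and B and 11.07 between A and C. In HCC1937 DMSO it was 19.36 and 21.97 for A against B and C, and 3.53 between B and C. Of 10 breast epithelial markers, 6 or 7 reached 1 CPM in the HCC1395 groups, 8 or 9 in HCC38 and all 10 in HCC1937, with summed levels of 506 to 756 CPM, 5526 to 5909 CPM and 9940 to 13270 CPM. In HCC1395 the epithelial cadherin gene CDH1 averaged 0.18 to 0.74 CPM and the epithelial regulator GRHL2 0.046 to 0.13 CPM, near absence. The 10 markers of stromal, endothelial and blood cells summed to 3.65 to 9.05 CPM in HCC38, 4.13 to 5.48 CPM in HCC1395 and 41.9 to 69.7 CPM in HCC1937. Under EZH2i+AKTi 6 of 7 tested genes of that list rose and 1 fell in HCC1937, and 0 of 6 changed in HCC1395. The 1 tested in HCC38, CD14, changed by -1.56 on the log2 scale (-1.74 without replicate C). Of the epithelial markers, 6 of 9 were higher and 1 lower in HCC1395, 2 of 10 higher and 6 lower in HCC1937 and 1 of 9 higher and 4 lower in HCC38. That HCC38 count is given only with replicate C included. By the test defined below, 60% of all genes were called in HCC1395 under EZH2i+AKTi, 59.3% in HCC1937 and 31.4% in HCC38. The higher and lower shares were 32.5% and 27.4%, 30.5% and 28.8%, and 16.8% and 14.5%. The part of these markers in the results below was not tested. In bulk RNA, fewer cells with a transcript and less of it per cell cannot be told apart.

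Levels below are CPM, counts scaled to library size with TMM factors over all 24 libraries. A log2 change is the difference between 2 groups on the log2 scale from edgeR's quasi-likelihood fit of the line concerned, and a gene is called at a Benjamini-Hochberg adjusted p under 0.05 over all genes tested. Comparisons that use the same DMSO libraries share them, so their values are set side by side and not counted as independent.

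In HCC1395, the activators E2F1 and E2F2, the atypical repressors E2F7 and E2F8, and MYBL2 fell under AKTi to between 0.251 and 0.436 of their DMSO level, and under EZH2i+AKTi the 5 genes stood at 0.285 to 0.412 of it. EZH2i alone moved none of E2F2, E2F7, E2F8 and MYBL2 past the test. In HCC1937 the same 5 genes also fell under EZH2i+AKTi, to between 0.444 and 0.599 of DMSO. In HCC38, MYBL2 alone among the 5 fell, E2F7 was higher, and E2F1, E2F2 and E2F8 did not pass the test. The plot of levels by library shows all 10 genes.

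**Figure D1:**
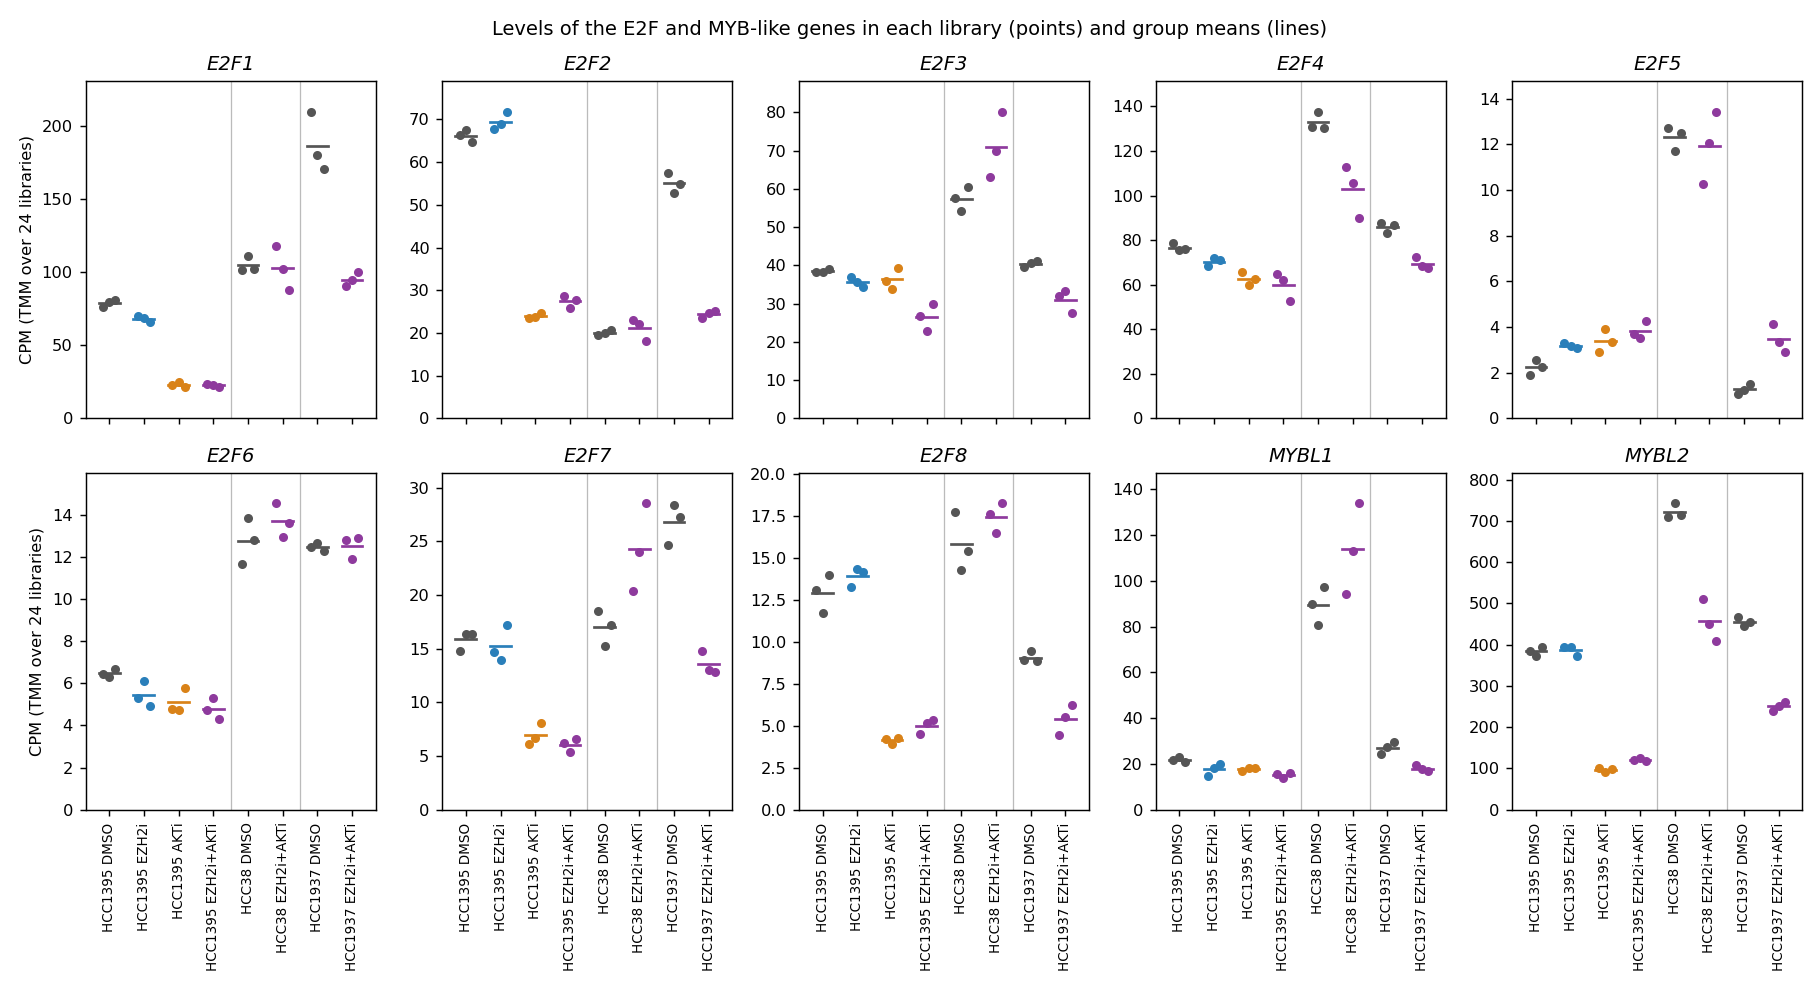
Level of each gene in CPM (vertical axis, linear and from 0, scaled by TMM over 24 libraries) in each of the 8 groups (horizontal axis); points are libraries and lines are group means. In HCC1395 the AKTi and EZH2i+AKTi points of E2F1, E2F2, E2F7, E2F8 and MYBL2 lie below all DMSO and EZH2i points, while in HCC38 the 2 groups of E2F1 and of E2F8 overlap.

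Counted over the 10 genes, EZH2i in HCC1395 gave 1 gene higher and 2 lower (of all 18074 genes tested, 33.7% were called, 18.8% higher and 14.9% lower), with a median log2 change of -0.08 against 0.02 over all genes. AKTi gave 1 higher and 8 lower (49.7% of all genes called, 27.1% higher and 22.6% lower), with a median of -0.77 against 0.06. EZH2i+AKTi gave 1 higher and 9 lower (60% called, 32.5% higher and 27.4% lower), with a median of -0.92 against 0.07. In HCC1937, EZH2i+AKTi gave 1 higher and 8 lower (59.3% called, 30.5% higher and 28.8% lower), with a median of -0.67 against 0.03. In HCC38 it gave 1 higher and 2 lower (31.4% called, 16.8% higher and 14.5% lower), with a median of 0.06 against -0.01, and leaving out HCC38 EZH2i+AKTi replicate C gave 4 called genes of the 10 where 38.3% of all genes were called. The HCC38 and EZH2i counts are thus near the share over all genes.

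**Figure D2:**
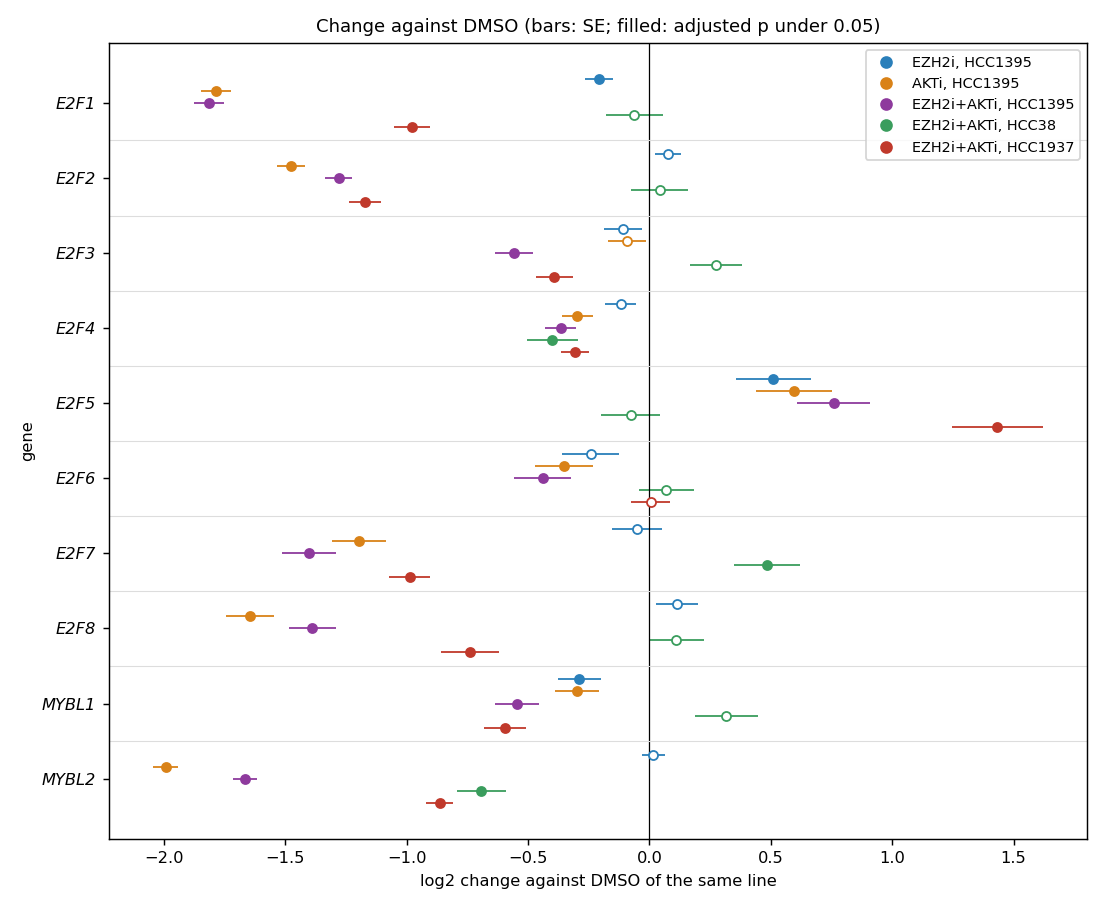
Log2 change against DMSO of the same line (horizontal axis) for each gene (vertical axis) in 5 comparisons, given by colour; bars are SE and filled points have an adjusted p under 0.05. The AKTi and EZH2i+AKTi points of HCC1395 reach -1.99 for MYBL2 and lie left of 0 for every gene but E2F5, and the HCC38 points lie between -0.69 and 0.48.

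Among the activators, E2F1 stood at 76.5, 79.4 and 80.8 CPM in the 3 DMSO libraries of HCC1395 and at 70.2, 68.5 and 65.7 CPM under EZH2i. Under AKTi it stood at 22.7, 24.8 and 21.5 CPM, and under EZH2i+AKTi at 23.6, 22.8 and 21.2 CPM. The EZH2i libraries lay just under the DMSO ones without overlap, and the AKTi and EZH2i+AKTi libraries overlapped each other far below both. The log2 change was -0.21 ± 0.06 (SE, n = 3 against 3; adjusted p = 0.00936) with EZH2i, -1.79 ± 0.06 (adjusted p = 6.88e-15) with AKTi and -1.81 ± 0.06 (adjusted p = 2.33e-15) with both. The EZH2i call was lost without HCC1395 EZH2i replicate C and when all 24 libraries were fitted together. In HCC1937, E2F1 stood at 210, 180 and 171 CPM in DMSO and at 90.4, 94.4 and 100.1 CPM under EZH2i+AKTi, which do not overlap, and the log2 change was -0.98 ± 0.07 (adjusted p = 3.03e-08). In HCC38 it stood at 102, 111 and 102 CPM in DMSO and at 118, 102 and 88.0 CPM under EZH2i+AKTi. Those 2 groups overlapped fully, replicate C was the lowest, and the log2 change was -0.06 ± 0.12 (adjusted p = 0.715), or 0.07 (adjusted p = 0.523) without replicate C.

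E2F2, the activator closest to E2F1 in its behaviour here, stood at 66.3, 67.5 and 64.8 CPM in DMSO and at 67.7, 69.0 and 71.8 CPM under EZH2i in HCC1395. It stood at 23.4, 23.6 and 24.7 CPM under AKTi and at 28.6, 25.9 and 27.8 CPM under EZH2i+AKTi. The EZH2i libraries were all above the DMSO ones by a margin that did not pass the test (log2 change 0.08 ± 0.05, adjusted p = 0.308). AKTi changed E2F2 by -1.48 ± 0.06 (adjusted p = 3.15e-14) and EZH2i+AKTi by -1.28 ± 0.06 (adjusted p = 9.57e-14). The level under both agents was above that under AKTi alone in all 3 libraries, with a log2 difference of 0.20 ± 0.06 (adjusted p = 0.0113), a call lost without HCC1395 EZH2i+AKTi replicate A (0.16) and in the fit of all 24 libraries. In HCC1937, E2F2 fell from 57.4, 52.8 and 55.0 CPM to 23.5, 24.7 and 25.2 CPM (log2 change -1.17 ± 0.07, adjusted p = 1.26e-09). HCC38 had little E2F2 from the start, with 19.5, 20.02 and 20.6 CPM in DMSO and 23.0, 22.2 and 18.02 CPM under EZH2i+AKTi. These groups overlapped through replicate C, and the log2 change was 0.04 ± 0.12 (adjusted p = 0.816), or 0.18 (adjusted p = 0.131) without it.

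E2F3, the third activator, did not follow E2F1 and E2F2. In HCC1395 it stood at 38.3, 38.3 and 39.2 CPM in DMSO, at 36.9, 35.7 and 34.4 CPM under EZH2i, at 35.9, 33.7 and 39.4 CPM under AKTi and at 26.6, 22.9 and 29.8 CPM under EZH2i+AKTi. Only the libraries given both agents stood clear of the other 3 groups. The log2 change was -0.11 ± 0.08 (adjusted p = 0.308) with EZH2i, -0.09 ± 0.08 (adjusted p = 0.337) with AKTi and -0.56 ± 0.08 (adjusted p = 3.24e-06) with both, and EZH2i+AKTi lay 0.46 below AKTi (log2 difference -0.46 ± 0.08, adjusted p = 9.7e-05). The departure from the sum of the single effects was -0.35 ± 0.11 and did not pass the test (adjusted p = 0.127), though it did without HCC1395 EZH2i+AKTi replicate C (-0.44). E2F3 also fell in HCC1937, from 39.5, 40.6 and 41.2 CPM to 31.9, 33.2 and 27.5 CPM (log2 change -0.39 ± 0.08, adjusted p = 0.00042). In HCC38 it stood higher under EZH2i+AKTi in all 3 libraries, at 63.1, 69.8 and 80.2 CPM against 57.7, 54.3 and 60.5 CPM in DMSO. That log2 change of 0.27 ± 0.11 missed the threshold (adjusted p = 0.0784) and passed it without HCC38 EZH2i+AKTi replicate C, at 0.22 (adjusted p = 0.0425), without HCC38 EZH2i+AKTi replicate A, with the stricter low-count filter and in the fit of all 24 libraries.

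Of the repressors, E2F4 fell under EZH2i+AKTi in all 3 lines. In HCC1395 it stood at 78.5, 75.4 and 76.0 CPM in DMSO, at 68.3, 71.8 and 71.0 CPM under EZH2i, at 65.5, 59.9 and 62.6 CPM under AKTi and at 64.7, 62.0 and 52.5 CPM under EZH2i+AKTi. The log2 change of -0.12 ± 0.06 with EZH2i did not pass the test (adjusted p = 0.168), while AKTi changed it by -0.30 ± 0.06 (adjusted p = 0.00061) and both by -0.36 ± 0.06 (adjusted p = 4.87e-05). With EZH2i+AKTi it fell from 87.5, 82.9 and 86.7 CPM to 72.2, 68.6 and 67.6 CPM in HCC1937 (log2 change -0.31 ± 0.06, adjusted p = 0.000309). In HCC38 it fell from 131, 138 and 130 CPM to 113, 106 and 90.04 CPM (log2 change -0.40 ± 0.10, adjusted p = 0.0155), and by -0.28 (adjusted p = 0.00786) without replicate C. The HCC38 call was lost when HCC38 DMSO replicate A, HCC38 DMSO replicate B or HCC38 EZH2i+AKTi replicate B was left out, with log2 changes of -0.38 to -0.42.

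E2F5 was the one gene of the 10 that rose under AKTi, and it was present at low levels outside HCC38. In HCC1395 it stood at 1.91, 2.56 and 2.22 CPM in DMSO, at 3.29, 3.16 and 3.06 CPM under EZH2i, at 2.92, 3.90 and 3.34 CPM under AKTi and at 3.68, 3.51 and 4.25 CPM under EZH2i+AKTi. No treated library overlapped the DMSO libraries, and the 3 treated groups were close to each other. The log2 change was 0.51 ± 0.16 (adjusted p = 0.0147) with EZH2i, 0.60 ± 0.16 (adjusted p = 0.00309) with AKTi and 0.76 ± 0.15 (adjusted p = 0.000212) with both. The EZH2i call was lost without HCC1395 DMSO replicate A (0.40) or without HCC1395 EZH2i replicate A (0.44). In HCC1937 it rose from 1.06, 1.23 and 1.499 CPM to 4.13, 3.33 and 2.90 CPM (log2 change 1.43 ± 0.19, adjusted p = 1.02e-05). In HCC38 it was already at 12.7, 11.7 and 12.5 CPM and stood at 10.3, 12.1 and 13.4 CPM under EZH2i+AKTi (log2 change -0.08 ± 0.12, adjusted p = 0.667; -0.13, adjusted p = 0.377, without replicate C). These values carry the overlap with C8orf59 described above.

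E2F6, the Polycomb-linked repressor, changed little. In HCC1395 it stood at 6.46, 6.29 and 6.67 CPM in DMSO, at 5.32, 6.11 and 4.90 CPM under EZH2i, at 4.77, 4.73 and 5.79 CPM under AKTi and at 4.74, 5.29 and 4.31 CPM under EZH2i+AKTi. Every treated library was below every DMSO library, and the log2 change was -0.24 ± 0.12 (adjusted p = 0.123) with EZH2i, -0.35 ± 0.12 (adjusted p = 0.0181) with AKTi and -0.44 ± 0.12 (adjusted p = 0.00306) with both. The AKTi call was lost without HCC1395 DMSO replicate C, AKTi replicate A or AKTi replicate B, with changes of -0.30 to -0.33. In HCC38 and HCC1937 E2F6 ranged over 11.6 to 14.5 CPM and 11.9 to 12.9 CPM, and the log2 changes of 0.07 ± 0.11 and 0.00 ± 0.08 did not pass the test (adjusted p = 0.68 and 0.966), nor did the HCC38 change without replicate C (0.11, adjusted p = 0.455).

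The atypical repressors E2F7 and E2F8 moved with E2F1 in HCC1395 and HCC1937. E2F7 stood at 14.8, 16.4 and 16.4 CPM in DMSO, at 14.7, 13.9 and 17.2 CPM under EZH2i, at 6.12, 6.66 and 8.07 CPM under AKTi and at 6.24, 5.33 and 6.62 CPM under EZH2i+AKTi in HCC1395. DMSO and EZH2i overlapped, as did AKTi and EZH2i+AKTi, with a clear gap between the pairs. The log2 change was -0.05 ± 0.10 (adjusted p = 0.754), -1.20 ± 0.11 (adjusted p = 1.47e-08) and -1.40 ± 0.11 (adjusted p = 7.65e-10). In HCC1937 E2F7 fell from 24.7, 28.4 and 27.3 CPM to 14.8, 13.0 and 12.9 CPM (log2 change -0.99 ± 0.08, adjusted p = 1e-07). HCC38 went the other way, from 18.5, 15.2 and 17.2 CPM to 20.3, 24.0 and 28.5 CPM (log2 change 0.48 ± 0.14, adjusted p = 0.0219), with replicate C the highest. Without replicate C the change was 0.39 (adjusted p = 0.00527), and the call was lost without HCC38 DMSO replicate B (0.41), HCC38 DMSO replicate C (0.48) or HCC38 EZH2i+AKTi replicate B (0.52).

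E2F8 stood at 13.1, 11.7 and 13.99 CPM in DMSO, at 13.3, 14.3 and 14.2 CPM under EZH2i, at 4.23, 3.90 and 4.30 CPM under AKTi and at 4.49, 5.15 and 5.33 CPM under EZH2i+AKTi in HCC1395. The 2 groups given AKTi lay far below the others, with log2 changes of -1.65 ± 0.10 (adjusted p = 2.38e-11) and -1.39 ± 0.10 (adjusted p = 8.6e-11), against 0.11 ± 0.09 (adjusted p = 0.353) for EZH2i. The difference of 0.26 ± 0.11 between EZH2i+AKTi and AKTi missed the threshold (adjusted p = 0.0623) and passed it with the stricter filter (0.28) and without HCC1395 EZH2i+AKTi replicate A (0.33). In HCC1937 E2F8 fell from 8.90, 9.45 and 8.83 CPM to 4.48, 5.55 and 6.22 CPM (log2 change -0.74 ± 0.12, adjusted p = 7.58e-05). In HCC38 it stood at 17.7, 14.2 and 15.4 CPM and at 17.6, 16.5 and 18.2 CPM, which overlap (log2 change 0.11 ± 0.11, adjusted p = 0.497; 0.12, adjusted p = 0.428, without replicate C).

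MYBL2 had the highest level per kilobase of exon among the 10 genes in DMSO, at 260 CPM per kb in HCC38, 164 in HCC1937 and 138 in HCC1395, where E2F1 had 42.0, 74.7 and 31.5 CPM per kb. In HCC1395 it stood at 385, 373 and 393 CPM in DMSO and at 394, 394 and 373 CPM under EZH2i, which overlap (log2 change 0.02 ± 0.05, adjusted p = 0.831). Under AKTi it stood at 100.2, 91.1 and 99.2 CPM (log2 change -1.99 ± 0.05, adjusted p = 6.78e-17), and under EZH2i+AKTi at 121, 126 and 117 CPM (log2 change -1.67 ± 0.05, adjusted p = 3.18e-16). All 3 libraries given both agents were above all 3 given AKTi, and the log2 difference between these groups was 0.33 ± 0.05 (adjusted p = 3.01e-05). MYBL2 was the one gene of the 10 whose response to both agents departed from the sum of the single effects (1.58% of all genes called, 0.526% higher and 1.06% lower), by 0.31 ± 0.07 (adjusted p = 0.0229). The share of all genes called for a departure turned with the scaling and with single libraries: it was 0.808% higher and 0.692% lower with RLE scaling, 2.62% and 0.783% without HCC1395 EZH2i+AKTi replicate B, 1.98% and 3.54% without EZH2i+AKTi replicate C and 0.896% and 0.346% without EZH2i replicate A. That departure kept its sign in the alternatives run, between 0.27 and 0.40, but was no longer called (adjusted p = 0.0542 to 0.099) when any 1 of HCC1395 DMSO replicate A, DMSO replicate C, AKTi replicate B, EZH2i replicate B, EZH2i replicate C or EZH2i+AKTi replicate A was left out, nor in the fit of all 24 libraries (adjusted p = 0.194).

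MYBL2 also fell in both other lines under EZH2i+AKTi. In HCC1937 it went from 466, 444 and 455 CPM to 239, 252 and 260 CPM (log2 change -0.86 ± 0.06, adjusted p = 5.2e-09). In HCC38 it went from 710, 742 and 714 CPM to 510, 449 and 410 CPM (log2 change -0.69 ± 0.10, adjusted p = 0.000667), with replicate C the lowest, and the change was -0.58 (adjusted p = 8.34e-06) without it. Treated HCC38 and untreated HCC1937 had means of 456 ± 50.4 and 455 ± 10.9 CPM (SD, n = 3 each), with overlapping values.

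MYBL1, like MYBL2, was highest in HCC38. In HCC38 it stood at 90.1, 80.8 and 97.3 CPM in DMSO, several times the 24.6, 27.3 and 29.6 CPM of HCC1937 and the 21.7, 23.2 and 20.9 CPM of HCC1395. In HCC1395 it stood at 15.0, 18.4 and 20.2 CPM under EZH2i, 17.1, 18.3 and 18.2 CPM under AKTi and 15.7, 13.7 and 16.1 CPM under EZH2i+AKTi. All treated libraries were below all DMSO libraries, with log2 changes of -0.29 ± 0.09 (adjusted p = 0.0177), -0.30 ± 0.09 (adjusted p = 0.0095) and -0.54 ± 0.09 (adjusted p = 2.84e-05). The EZH2i call was lost without HCC1395 DMSO replicate B, without EZH2i replicate A and in the fit of all 24 libraries. The difference of EZH2i+AKTi from AKTi was -0.25 ± 0.09 (adjusted p = 0.0422) and was lost when any 1 of the 3 AKTi libraries, EZH2i+AKTi replicate A or EZH2i+AKTi replicate B was left out, with the stricter filter and in the fit of all 24. In HCC1937 MYBL1 fell to 19.4, 17.6 and 17.1 CPM (log2 change -0.59 ± 0.08, adjusted p = 2.21e-05). In HCC38 it stood at 94.5, 113 and 134 CPM under EZH2i+AKTi, where 2 of 3 libraries exceeded all DMSO ones, and the log2 change of 0.32 ± 0.13 did not pass the test (adjusted p = 0.0894; 0.22, adjusted p = 0.06, without replicate C). It did pass without the low-count filter, without HCC38 EZH2i+AKTi replicate A and in the fit of all 24 libraries.

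The treated groups of HCC1395 were also compared with each other. EZH2i+AKTi against EZH2i gave 0 genes higher and 8 lower (49% of all genes called, 23.9% higher and 25.1% lower), with MYBL2 at -1.68 ± 0.05, E2F1 at -1.61 ± 0.06, E2F8 at -1.50 ± 0.09, E2F2 at -1.36 ± 0.06 and E2F7 at -1.35 ± 0.11. The other 3 were E2F3 (-0.45), E2F4 (-0.25) and MYBL1 (-0.26), and MYBL1 was lost without HCC1395 EZH2i replicate B, EZH2i replicate C or EZH2i+AKTi replicate B and in the fit of all 24 libraries. EZH2i+AKTi against AKTi gave 2 higher, MYBL2 and E2F2, and 2 lower, E2F3 and MYBL1 (35.5% called, 17% higher and 18.6% lower). AKTi against EZH2i gave 0 higher and 6 lower (55.6% called, 27% higher and 28.6% lower), the 5 genes above and E2F4 (-0.18 ± 0.06, adjusted p = 0.0228), which was lost without AKTi replicate B or C or EZH2i replicate B or C and in the fit of all 24.

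Before treatment the lines differed in nearly all of these genes, as they did in most genes. In DMSO, HCC38 against HCC1395 gave 8 genes higher and 1 lower (74.7% of all 20697 genes called, 38.2% higher and 36.5% lower), HCC1937 against HCC1395 5 higher and 3 lower (73% called, 37.3% higher and 35.7% lower) and HCC1937 against HCC38 3 higher and 6 lower (71.9% called, 36.2% higher and 35.6% lower). The widest gaps were in E2F5, 2.46 ± 0.15 higher on the log2 scale in HCC38 than in HCC1395 (adjusted p = 4.35e-15) and -3.27 ± 0.16 in HCC1937 against HCC38 (adjusted p = 1.88e-17). MYBL1 was 2.03 ± 0.11 higher in HCC38 than in HCC1395 (adjusted p = 2.62e-16), and E2F2 went the other way at -1.72 ± 0.08 (adjusted p = 1.81e-18). E2F1 was highest in HCC1937, 1.24 ± 0.09 above HCC1395 (adjusted p = 8.48e-14) and 0.83 ± 0.08 above HCC38 (adjusted p = 5.57e-10). MYBL2 was highest in HCC38, 0.91 ± 0.07 above HCC1395 (adjusted p = 2.38e-13), with HCC1937 0.67 below HCC38 (log2 difference -0.67 ± 0.07, adjusted p = 2.59e-10). E2F8, the one atypical member low in HCC1937, was at -0.51 ± 0.11 there against HCC1395 (adjusted p = 7.95e-05), while E2F7 was at 0.76 ± 0.11 (adjusted p = 8.32e-07). Neighbours that did not differ past the test were E2F7 in HCC38 and HCC1395 (0.10 ± 0.12, adjusted p = 0.444), E2F6 in HCC1937 and HCC38 (-0.03 ± 0.10, adjusted p = 0.774), and E2F3 (0.07 ± 0.09, adjusted p = 0.51) and E2F4 (0.16 ± 0.07, adjusted p = 0.0537) in HCC1937 and HCC1395.

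Ordered by mean over the 8 groups, E2F1 ran from 187 ± 20.6 CPM (SD, n = 3) in HCC1937 DMSO to 22.5 ± 1.21 CPM in HCC1395 EZH2i+AKTi, and below the highest group both HCC38 groups and treated HCC1937 overlapped from one to the next. E2F2 ran from 69.5 ± 2.11 CPM in HCC1395 EZH2i to 20.04 ± 0.54 CPM in HCC38 DMSO, and both HCC38 groups had the lowest means. MYBL2 ran from 722 ± 17.8 CPM in HCC38 DMSO to 96.8 ± 4.98 CPM in HCC1395 AKTi, with overlap at the second step and between the DMSO and EZH2i groups of HCC1395. For E2F8 the 4 groups of lowest mean were HCC1937 DMSO and the 3 groups given AKTi in HCC1395 and HCC1937.

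The response to EZH2i+AKTi was then compared between lines within one model of all 24 libraries. HCC38 minus HCC1395 gave 8 genes higher and 1 lower (33% of all genes called, 17.4% higher and 15.6% lower), HCC38 minus HCC1937 6 higher and 1 lower (32% called, 17.7% higher and 14.3% lower) and HCC1937 minus HCC1395 5 higher and 0 lower (23.3% called, 11.3% higher and 12% lower). The widest differences of HCC38 from HCC1395 were E2F7 at 1.91 ± 0.17 (adjusted p = 4.98e-10), E2F1 at 1.77 ± 0.12 (adjusted p = 3.45e-12), E2F8 at 1.52 ± 0.15 (adjusted p = 4.44e-09) and E2F2 at 1.34 ± 0.11 (adjusted p = 5.49e-11). MYBL2, which fell in both, differed by 0.997 ± 0.09 (adjusted p = 1.35e-09). Without replicate C of treated HCC38 these 5 differences were 1.78, 1.87, 1.49, 1.44 and 1.07. E2F4 did not differ past the test between any 2 lines, with differences of -0.01 ± 0.11, -0.07 ± 0.11 and 0.05 ± 0.11 (adjusted p = 0.965, 0.687 and 0.793). HCC38 and HCC1937 differed in E2F7 (1.499 ± 0.16), E2F2 (1.24 ± 0.11), E2F1 (0.94 ± 0.12), MYBL1 (0.94 ± 0.15), E2F8 (0.88 ± 0.15) and E2F3 (0.69 ± 0.13), and without replicate C these 6 differences were 1.37, 1.345, 1.05, 0.81, 0.85 and 0.60. In MYBL2 they differed by 0.20 ± 0.09, which missed the threshold (adjusted p = 0.102) and passed it without replicate C of treated HCC38 (0.27, adjusted p = 0.0095). HCC1937 fell less than HCC1395 in E2F1 (0.83 ± 0.12, adjusted p = 4.85e-06), MYBL2 (0.80 ± 0.09, adjusted p = 9.51e-08) and E2F8 (0.64 ± 0.16, adjusted p = 0.00273), while E2F2 differed by 0.10 ± 0.10 (adjusted p = 0.55).

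**Figure D3:**
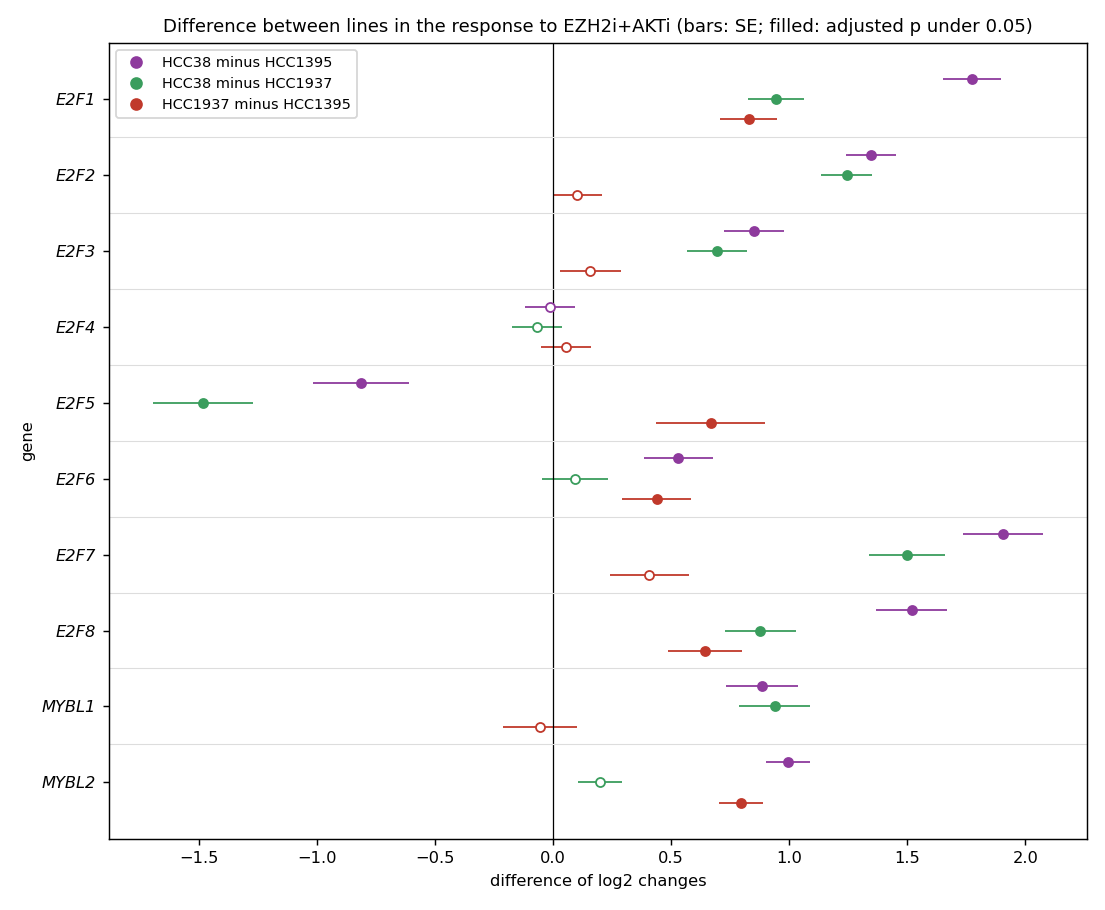
Difference between 2 lines in the log2 change under EZH2i+AKTi (horizontal axis) for each gene (vertical axis), with SE bars and filled points for an adjusted p under 0.05. E2F1, E2F2, E2F7 and E2F8 lie to the right of 0 for HCC38 against both other lines, E2F5 to the left, and E2F4 between -0.07 and 0.05 in the 3 comparisons.

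The partners through which E2F proteins act, and with them FOXM1 and MYB, were read from the same fits. RBL1, the p107 pocket protein and itself an E2F target, changed in HCC1395 by -1.005 under AKTi (adjusted p = 1.3e-10) and -1.27 under EZH2i+AKTi (adjusted p = 2.2e-12), and in HCC1937 by -0.81 (adjusted p = 3.1e-06). RBL2, the p130 pocket protein of resting cells, rose by 0.44, 0.19 and 0.42 in the same comparisons (adjusted p = 1.9e-05, 0.021 and 7.4e-05) and by 0.43 in HCC38 (adjusted p = 0.015; 0.397 without replicate C). The DP partners moved apart, with TFDP1 at -0.62, -0.83 and -0.53 and TFDP2 at 0.78, 0.77 and 0.54, all past the test. In HCC38, RBL1 (-0.15), TFDP1 (-0.14) and TFDP2 (0.17) did not pass it, though RBL1 did without replicate C (-0.27, adjusted p = 0.0156). TFDP1 (-0.15) and TFDP2 (0.14) did not pass it without that replicate either. RB1 stood at 156 ± 3.13 CPM in DMSO in HCC1395, 94.9 ± 8.60 CPM in HCC38 and 33.3 ± 2.09 CPM in HCC1937, and changed by -0.37 in HCC1395 (adjusted p = 5.7e-06) and -0.53 in HCC1937 (adjusted p = 1.4e-05) under EZH2i+AKTi. Its change of 0.26 in HCC38 did not pass the test (adjusted p = 0.208), nor did that of 0.10 without replicate C (adjusted p = 0.381). FOXM1, the partner of MYBL2 at mitotic genes, fell with EZH2i+AKTi in every line, by -0.38 in HCC1395, -0.41 in HCC38 and -0.60 in HCC1937 (adjusted p = 2.5e-06, 0.0087 and 1.6e-07), and by -0.35 in HCC38 without replicate C. MYB, the founding member of the MYB family, stood at only 0.87 to 4.43 CPM. It rose in HCC38 by 1.54 (adjusted p = 0.00027; 1.48 without replicate C), and in HCC1395 it changed by 0.72 under EZH2i (adjusted p = 0.0079) and -1.11 under AKTi (adjusted p = 0.0004). Under EZH2i+AKTi MYB changed by -0.48 in HCC1937 (adjusted p = 0.0425). The change of -0.44 in HCC1395 did not pass the test (adjusted p = 0.0793). The list of 12 genes holds FOXM1 and MYB besides E2F and DREAM partners. Of these 12, 2 rose and 9 fell with AKTi in HCC1395, and 2 rose and 8 fell with EZH2i+AKTi there. With EZH2i+AKTi 2 rose and 9 fell in HCC1937. In HCC38 3 rose and 1 fell (3 and 2 without replicate C). MYB was among those that rose in HCC38, and the 1 that fell with replicate C included was FOXM1. Of all genes, 49.7%, 60%, 59.3% and 31.4% (38.3% without replicate C) were called in these comparisons, so the HCC38 count is near the share over all genes.

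Target genes were counted in 2 lists. Of 24 tested genes that E2F proteins drive at G1/S, 0 rose and 23 fell with AKTi in HCC1395 (median log2 change -1.34 against 0.06 over all genes), 0 and 23 with EZH2i+AKTi (-1.32 against 0.07), and 0 and 24 in HCC1937 (-0.97 against 0.03). The shares of all genes that fell were 22.6%, 27.4% and 28.8%, and 14.5% in HCC38. CDC6, which loads the replicative helicase, changed by -1.99 ± 0.06 under AKTi, -2.21 ± 0.06 under EZH2i+AKTi and -1.51 ± 0.06 in HCC1937. RRM2, a subunit of ribonucleotide reductase, changed by -1.73 ± 0.06, -1.54 ± 0.06 and -1.46 ± 0.06. In HCC38 1 rose and 7 fell (median -0.23), among them CDC25A (-0.51 ± 0.11, or -0.39 without replicate C) and CDC45 (-0.37 ± 0.09, or -0.33). Without replicate C 1 rose and 10 fell, and in the fit of all 24 libraries 1 rose and 12 fell. The shares of all genes that rose and fell were 21.4% and 17% without replicate C, and 21% and 16.3% in that fit. EZH2i alone gave 1 higher and 4 lower (18.8% and 14.9% of all genes), and 0 higher and 9 lower with RLE scaling (17.1% and 19.4% of all genes).

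Of 24 genes of G2 and mitosis bound by B-MYB and FOXM1, 0 rose and 20 fell with AKTi in HCC1395 (median -0.52), 0 and 18 with EZH2i+AKTi (-0.37), 0 and 19 in HCC1937 (-0.37) and 0 and 10 in HCC38 (-0.17), where 22.6%, 27.4%, 28.8% and 14.5% of all genes fell. CDK1, the mitotic kinase, changed by -0.81 ± 0.05 under AKTi and -0.75 ± 0.05 under EZH2i+AKTi in HCC1395. CDC20, an activator of the anaphase-promoting complex, changed by -0.72 ± 0.04 under AKTi and, in HCC38 under EZH2i+AKTi, by -0.71 ± 0.10 (-0.62 without replicate C). In HCC38 the count became 2 higher and 13 lower without replicate C and 3 higher and 12 lower in the fit of all 24. There 21.4% of all genes were higher and 17% lower without replicate C, and 21% and 16.3% in that fit. With EZH2i+AKTi against AKTi in HCC1395, 13 of the 24 were higher and 0 lower (17% and 18.6% of all genes), led by CDC20 (0.36 ± 0.04), KIF20A (0.38 ± 0.05), UBE2C (0.48 ± 0.07) and CCNB1 (0.37 ± 0.05), the direction MYBL2 itself took there. The G1/S list gave 3 higher and 6 lower in that comparison. CDC20, PLK1, AURKA and CDCA8 were the 4 of the 24 called for a departure from the sum of the single effects (0.34, 0.27, 0.30 and 0.30), all higher, where 0.526% of all genes were. The count was 9 higher with the DESeq2 Wald test (2.07% of all genes) and 0 in the fit of all 24 libraries (0.135%). List counts in HCC1395 were not recomputed with single libraries left out. EZH2i alone gave 3 higher and 1 lower in the G2/M list (18.8% and 14.9% of all genes), but 1 higher and 3 lower with RLE scaling (17.1% and 19.4% of all genes).

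**Figure D4:**
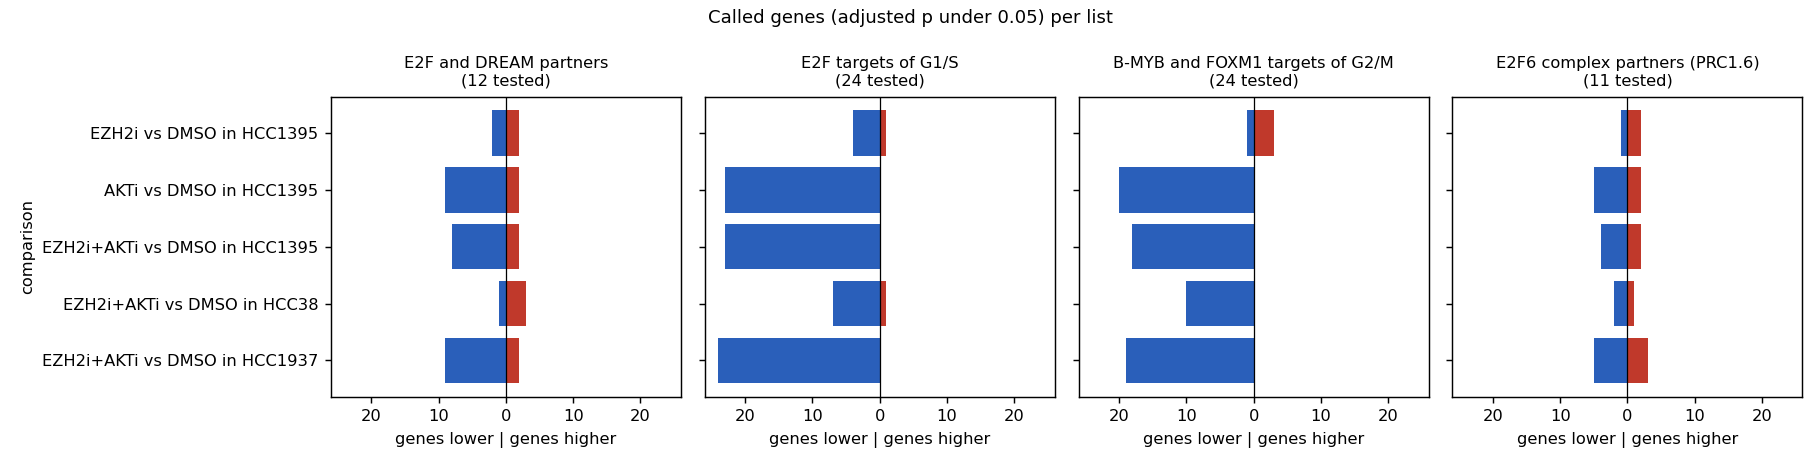
Number of called genes lower (left of 0, blue) and higher (right of 0, red) in 4 lists for 5 comparisons against DMSO (rows). In the G1/S list 23 or 24 of 24 genes were lower in each comparison with AKTi in HCC1395 and HCC1937, and 7 in HCC38.

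Of 11 partners of E2F6 in the Polycomb complex PRC1.6, 2 rose and 4 fell with EZH2i+AKTi in HCC1395, 3 rose and 5 fell in HCC1937 and 1 rose and 2 fell in HCC38, also without replicate C. With 60%, 59.3% and 31.4% (38.3% without replicate C) of all genes called, the counts in the 3 lines are near the share over all genes. RNF2, its ubiquitin ligase subunit, rose by 0.60 ± 0.07, 0.58 ± 0.08 and 0.62 ± 0.12 in these 3 comparisons and by 0.86 ± 0.07 with EZH2i alone, and L3MBTL2 changed by -0.64 ± 0.06, -0.51 ± 0.07 and -0.48 ± 0.10. Without replicate C the HCC38 values were 0.51 for RNF2 and -0.41 for L3MBTL2. Of 14 germline genes that E2F6 or PRC1.6 keep silent, 3 were tested in HCC1395, 3 in HCC38 and 4 in HCC1937, and passing that filter depends on being expressed. In HCC1937 STK31 (1.65 ± 0.14) and STAG3 (1.39 ± 0.25) rose and HORMAD1 fell (-0.39 ± 0.08), and in HCC38 SYCP1 (1.36 ± 0.30, or 1.296 without replicate C) and SMC1B (0.53 ± 0.16, or 0.46) rose. In HCC1395 SMC1B (-0.69 ± 0.07) and HORMAD1 (-0.39 ± 0.07) fell.

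Across the 24 libraries, after each line's mean was removed, E2F1, E2F2, E2F8 and MYBL2 followed each other closely, with Pearson's r of 0.94 to 0.97 between log2 levels. E2F7 had r of 0.81 to 0.92 with these 4. MYBL1 went with E2F3 (r = 0.83) and less with MYBL2 (r = 0.37), and E2F5 was negative with all 9 others (-0.41 to -0.70). These are descriptions over libraries that share treatments, and 12 of them come from HCC1395.

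**Figure D5:**
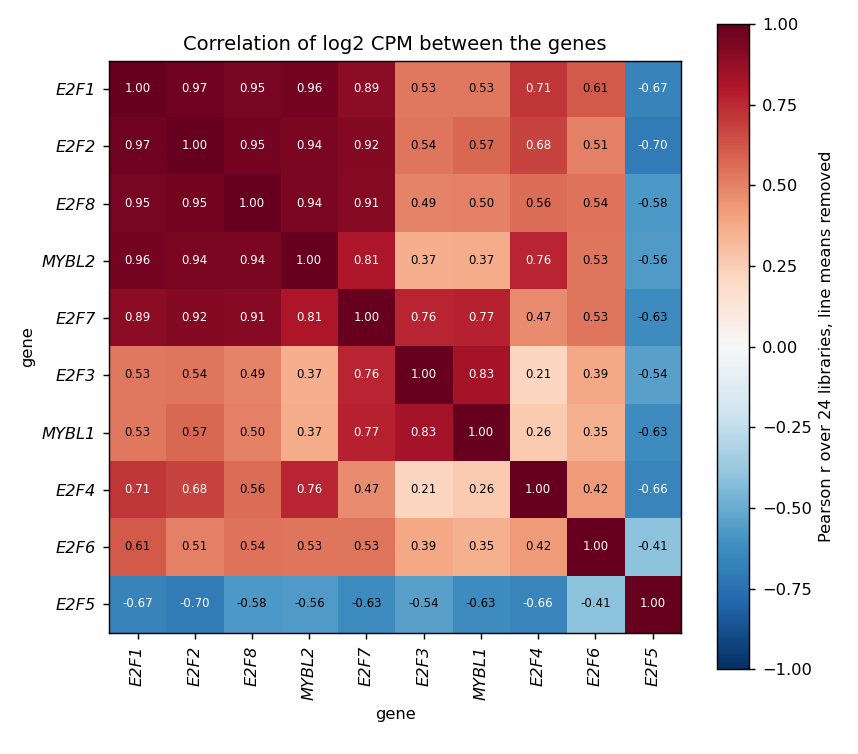
Pearson's r between the log2 CPM of each pair of genes over 24 libraries after subtraction of each line's mean (colour scale from -1 to 1, values printed). E2F1, E2F2, E2F8, MYBL2 and E2F7 form the block of high values, and E2F5 is negative against every other gene.

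By the same measure over 13178 genes, the genes most like E2F1 were FEN1 (r = 0.992), TCF19 (0.989) and MCM5 (0.987), and those most like E2F2 were UHRF1 (0.992), TCF19 (0.984) and RAD54L (0.981). E2F8 lay nearest to RIBC2, PCNA and TCF19 (0.969 to 0.973), and E2F7 to ZNF367, RMI1 and FAM111B (0.972 to 0.975). MYBL2 was closest to ZWINT (0.993), CENPM (0.992) and TUBG1 (0.988). E2F3 was closest to SLF2, PDS5B and RECQL (0.927 to 0.930), MYBL1 to FAM91A1, KPNA1 and CASP8AP2 (0.940 to 0.945), E2F4 to MRPL58, GPS1 and SRRT (0.953 to 0.957) and E2F5 to PLXDC2, GULP1 and REXO2 (0.910 to 0.944). E2F6 had no close match, with VAC14 highest at 0.794.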

How the data were processed

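RNA-seq was deposited for 24 libraries of 3 cell lines. The submitters' processing notes list fastp, HISAT2 2.0.5, DESeq2 and the build hg38. Which program counted reads, with what gene annotation and strand mode, is not given in the sources used here. The deposited files used here hold raw counts per gene made by the authors, with 58735 entries per library; the authors' normalized tables were not used.

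Counts were tested with edgeR 4.0.16 (robust quasi-likelihood fit, two-sided, limma 3.58.1, R 4.3.3) after filterByExpr with a minimum count of 10 and TMM scaling. Each line had its own fit, HCC1395 with 18074 genes and 8 residual degrees of freedom, HCC38 with 17100 and 4, and HCC1937 with 17692 and 4. A fit of all 24 libraries (20697 genes, 16 degrees of freedom) gave differences between lines and the CPM levels. P-values were adjusted by Benjamini-Hochberg over all genes of a fit and called under 0.05. The script was tested on simulated counts. Alternatives were RLE scaling, no filter, a filter of 1 CPM in 3 libraries, DESeq2 1.42.0, a replicate block, one fit of all libraries and leaving out each library. List counts were recomputed under these alternatives, but of the single libraries only replicate C of treated HCC38 was left out for them. Those list counts, and gene values without that replicate, were added after seeing the data.

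The 10 genes were given by symbol, and all were named in every comparison. From each list of other genes at most the 4 with the smallest p in a comparison were named, together with MYB, FOXM1, RB1, RBL1, RBL2, TFDP1 and TFDP2. The likeness measure left out genes averaging under 2 CPM and added a prior count of 2. The genes and lists were chosen with earlier results of these data known. Gene positions and exon lengths came from GENCODE 29, and promoter sequences were matched by symbol to RefSeq (GRCh38.p14). No library was left out of the reported fits, and no 2 libraries of the same group agreed within sampling noise. Depth sets the counting precision, which is lowest for E2F5, with 44 to 535 counts per library.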

Additional observations from a re-analysis of the deposited data

Results flagged for a closer look

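The response to EZH2i+AKTi differed between cell lines, by a test of the difference itself within one edgeR model of all 24 libraries, for 21 of 30 pairs of a gene and a pair of lines. Of all genes, 33% were called for HCC38 minus HCC1395, 32% for HCC38 minus HCC1937 and 23.3% for HCC1937 minus HCC1395. Values are differences of log2 changes, and a positive value means that the first line fell less or rose more. For HCC38 minus HCC1395 they were 1.77 for E2F1, 1.345 for E2F2, 0.85 for E2F3, -0.81 for E2F5, 0.53 for E2F6, 1.91 for E2F7, 1.52 for E2F8, 0.88 for MYBL1 and 0.997 for MYBL2. For HCC38 minus HCC1937 they were 0.94 for E2F1, 1.24 for E2F2, 0.69 for E2F3, -1.48 for E2F5, 1.499 for E2F7, 0.88 for E2F8 and 0.94 for MYBL1. For HCC1937 minus HCC1395 they were 0.83 for E2F1, 0.67 for E2F5, 0.44 for E2F6, 0.64 for E2F8 and 0.80 for MYBL2.

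Every one of the 16 differences that involve HCC38 was also called without replicate C of treated HCC38. For HCC38 minus HCC1395, those of E2F3, E2F5, E2F6 and MYBL1 were then 0.76, -0.91, 0.53 and 0.75. For HCC38 minus HCC1937, that of E2F5 was then -1.57. The E2F5 and E2F6 differences of HCC1937 from HCC1395 were lost without the low-count filter, with a replicate block and when single libraries were left out, E2F5 without HCC1937 DMSO replicate A or B, HCC1937 EZH2i+AKTi replicate A, HCC1395 DMSO replicate B or C, or HCC1395 EZH2i+AKTi replicate A or B, and E2F6 without HCC1937 DMSO replicate C, HCC1937 EZH2i+AKTi replicate A or C, HCC1395 DMSO replicate A or C, or HCC1395 EZH2i+AKTi replicate A or C.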

How the results depend on the processing

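Of 1980 single-gene values recomputed under the alternatives, 1904 kept their side of the threshold, 63 were no longer called and 13 became called. Of the values called in either setting 0 changed sign, while 41 of the 1904, uncalled in both settings, did. RLE scaling and the DESeq2 Wald test each kept all 150 values on their side of the threshold. The count of called genes among the 10 differed from the reported one under some alternative in 11 of 15 comparisons, and by over 1.5 times in 5 of them. In the fit of all 24 libraries, EZH2i against DMSO in HCC1395 gave 1 called gene in place of 3, EZH2i+AKTi against AKTi 2 in place of 4, the departure from the sum of single effects 0 in place of 1, and EZH2i+AKTi in HCC38 5 in place of 3. The share of all genes called in that fit was 23.8%, 24.8%, 0.377% and 37.3%, in place of 33.7%, 35.5%, 1.58% and 31.4%. The HCC1937 minus HCC1395 response gave 3 in place of 5 without the low-count filter and 3 with the replicate block. There 11.6% and 22.6% of all genes were called, in place of 23.3%. Leaving out single libraries gave 1 to 3 genes for EZH2i in HCC1395 (1 without EZH2i replicate A), 0 to 2 for the departure (2 without EZH2i+AKTi replicate C), 1 to 5 for HCC38 (1 without DMSO replicate B or EZH2i+AKTi replicate B, 5 without EZH2i+AKTi replicate A) and 3 to 5 for HCC1937 minus HCC1395 (3 without HCC1937 EZH2i+AKTi replicate A, HCC1395 DMSO replicate C or HCC1395 EZH2i+AKTi replicate A). Over all genes, 30.3% were called for EZH2i without EZH2i replicate A and 5.52% for the departure without EZH2i+AKTi replicate C. For HCC38 the shares were 17.7% without DMSO replicate B, 19% without EZH2i+AKTi replicate B and 38.5% without EZH2i+AKTi replicate A. For HCC1937 minus HCC1395 they were 21.5%, 20% and 20.2% in the order given. The cause was not tested. Libraries with the same letter did not deviate together, with correlations of -0.107 to 0.192 over 18 pairs in HCC1395, -0.162 to 0.201 over 3 in HCC38 and -0.35 to -0.106 over 3 in HCC1937, so the letters were not used as pairs. Of 150 calls the replicate block changed 3: E2F5 and E2F6 of the HCC1937 minus HCC1395 response were lost, at 0.65 and 0.44, and MYBL1 in HCC38 was gained, at 0.31.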
